A study of Arabidopsis thaliana with 16 samples.

Results

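Plastid ribosomes are built from parts made in 2 compartments. Some of their proteins are encoded in the plastid genome, and the rest are encoded in the nucleus, made in the cytosol and imported. The ribosome is of the bacterial type, with a small subunit that reads the messenger RNA and a large subunit that joins amino acids, and it makes photosystem, ATP synthase and Rubisco subunits that the plastid genome encodes. GUN1 is a pentatricopeptide repeat protein inside the plastid, needed for signals by which a disturbed plastid changes the expression of nuclear genes, and it has been reported to bind a protein of the small plastid ribosomal subunit.

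The genes described here are 6 nuclear genes of Arabidopsis thaliana for plastid ribosomal proteins, chosen by locus as those with a probe that lists exactly 1 gene. They are 6 of 692 such probes, on arrays of 3439 probes, and each has 1 probe. Of the small subunit, the proteins are S10 (AT3G13120) and S6 (AT1G64510). Of the large subunit, they are L5 (AT4G01310), L17 (AT3G54210), L29 (AT5G65220) and L34 (AT1G29070). The annotation tables used here name these genes by locus only, so protein names are given as background. The RefSeq gene table lists 3 transcripts for S10, 2 for S6 and 1 for each of the other genes, and 1 probe cannot separate such forms.

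Total RNA was measured in 8 samples of the mutant gun1-1, labelled gun1, and in 8 samples of wild type, labelled WT, both in the ecotype Columbia 0 and each numbered 1 to 8. The gun1-1 mutation is the one difference between the groups that the labels give. No label names a tissue, an age, a growth condition or a treatment, so a labelled tissue could not be checked, and 0 of the seed, senescence and leaf marker genes listed for this purpose had a single-gene probe. GUN1 (AT2G31400) has 0 single-gene probes here and could not serve as a check of the labels. Whether the samples of a group are separate plants or cultures is not stated, so every p-value rests on a spread that may be technical. In bulk RNA, fewer cells of a type and less RNA per cell cannot be told apart.

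Levels are intensities that run from 0 to 100 in every sample as deposited, made comparable between samples by quantile normalization, and the number of arrays limits their precision. Values below a floor of 0.0313 were set to it. A difference is the mean log2 level in gun1 minus that in WT, and a gene is referred to as called where limma's p, adjusted over all 3419 probes tested, was under 0.05. The deposited sample medians lay between 0.216 and 0.259 in gun1 and between 0.130 and 0.157 in WT. The deposited zeros per sample numbered 193 to 274 in gun1 and 250 to 451 in WT. The groups therefore differ on the deposited scale before any gene is considered, and the scaling moves single differences.

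After quantile normalization, messenger RNAs for both small-subunit proteins and for L5 of the large subunit were less abundant in gun1. Geometric mean levels in gun1 were 61.6% of the WT level for S10, 65.6% for S6 and 70.8% for L5. L17 was at 101.7% of WT, L29 at 127.9% and L34 at 76.2%, and these genes were not called. In all, 3 of 6 genes were called lower and 0 higher, where 15.2% of all probes tested were called lower and 16.6% higher. The 6 genes were chosen with earlier results of these data known, so no excess over these shares can be read from the count. The count depended on the processing, and so did the share of all probes called lower, given here in brackets. With unscaled values 1 gene was called lower (6.02%), under cyclic loess 1 (15.5%) and with consecutive numbers as a random block 1 (9.77%). With a common median 4 were called lower (29.8%), and with consecutive numbers averaged 0 (7.58%). The median log2 difference was -0.45 over the 6 genes and -0.053 over all probes tested. Unscaled it was 0.017 over the 6 genes and 0.41 over all probes, and with a common median it was -0.71 and -0.18. All 6 genes were tested, and 4 of them, S10, S6, L5 and L17, had no sample at the floor.

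S10 is a protein of the head of the small subunit, which in Escherichia coli also takes part in transcription antitermination. Its level in gun1 had a lowest value of 0.275, a median of 0.439 and a highest value of 0.656. In WT the lowest value was 0.661, the median 0.723 and the highest 0.877. Every gun1 sample thus lay below every WT sample, a separation in this direction that 3.33% of all probes tested showed. The gap was narrow, since gun1 replicates 5 and 6, at 0.656 and 0.641, came close to WT replicate 8 at 0.661. On the deposited scale the groups overlapped, with 7 of 8 gun1 samples below all WT samples. The log2 difference was -0.70 (SE 0.18, 95% interval -1.08 to -0.32, limma adjusted p = 0.00724). S10 was lower in gun1 in 8 of 8 numbered pairs, with log2 differences from -1.27 in number 8 to -0.24 in number 6. Among all probes tested, 12.3% were lower in all pairs.

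S6 is a protein of the platform of the small subunit. Its gun1 levels had a lowest value of 0.152, a median of 0.207 and a highest value of 0.275. In WT they had a lowest value of 0.220, a median of 0.315 and a highest value of 0.458. The groups overlapped, with 5 of 8 gun1 samples below the lowest WT sample and 5 of 8 WT samples above the highest gun1 sample. The log2 difference was -0.61 (SE 0.19, 95% interval -1.01 to -0.20, limma adjusted p = 0.0232). As with S10, the gun1 sample was the lower one in 8 of 8 pairs, and the differences lay between -1.10 in number 1 and -0.20 in number 8. This difference was tied to the scaling: on the deposited scale S6 averaged 0.257 ± 0.0437 in gun1 and 0.272 ± 0.0835 in WT (SD, n = 8 each), and without scaling the log2 difference was -0.038 (adjusted p = 0.892), where the median of all probes was 0.41. The deposited median of S6 was the higher one in gun1, at 0.271 against 0.266 in WT. Under cyclic loess S6 was not called either (log2 -0.55, adjusted p = 0.0530).

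L5 sits in the central protuberance of the large subunit and binds a small ribosomal RNA there. Levels in gun1 had a lowest value of 0.211, a median of 0.384 and a highest value of 0.498. Those in WT had a lowest value of 0.411, a median of 0.482 and a highest value of 0.578. The groups overlapped through gun1 replicates 5 and 6, at 0.498 and 0.446, while the other 6 gun1 samples lay below all WT samples. The log2 difference was -0.50 (SE 0.17, 95% interval -0.86 to -0.14, limma adjusted p = 0.0325). L5 was lower in gun1 in 7 of 8 pairs, from -1.19 in number 3 to 0.043 in number 5. The call depended on single samples, being lost without gun1 replicate 3, 4 or 8 or WT replicate 1, 2 or 6 (adjusted p from 0.0547 to 0.0611). The call was also lost without scaling (log2 -0.18, adjusted p = 0.414) and under cyclic loess (log2 -0.40, adjusted p = 0.0585), while a common median took L5 to a log2 difference of -0.90 (adjusted p = 0.000187). On the deposited scale L5 averaged 0.407 in gun1 and 0.452 in WT, while its median was the higher one in gun1 (0.453 against 0.440).

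L17, a large-subunit protein placed near the exit of the peptide tunnel in Escherichia coli, had nearly equal levels in both genotypes. In gun1 its lowest value was 0.620, its median 0.847 and its highest value 1.07. In WT the lowest value was 0.599, the median 0.870 and the highest 0.980. The ranges overlapped almost completely, and 5 of 8 pairs were lower and 3 higher in gun1. The log2 difference was 0.024 (SE 0.15, adjusted p = 0.925), with a 95% interval from -0.29 to 0.34, so that it leaves room for changes of up to 1.27-fold in gun1 over WT or down to 0.816-fold. With a common median in place of quantile normalization, however, L17 was called lower in gun1 (log2 -0.66, adjusted p = 0.00365).

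**Figure D1:**
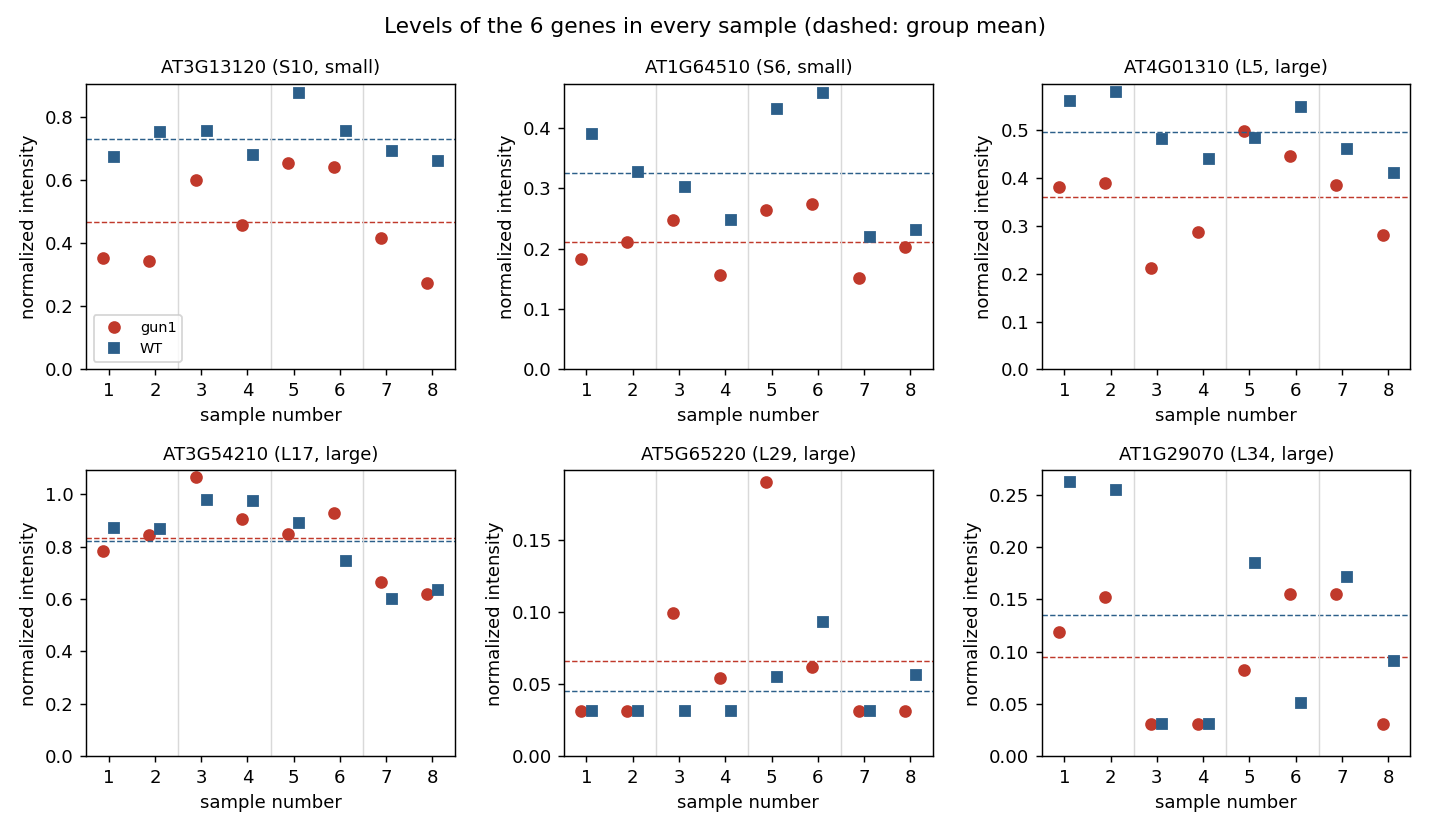
Normalized intensity (y axis, own scale from 0 in each panel) of the 6 genes by sample number (x axis), with red circles for gun1, blue squares for WT, dashed lines for group means and grey lines between consecutive pairs of numbers. For S10 all gun1 samples lie below all WT samples. For L17 the averages of consecutive pairs of numbers rise and fall alike in both genotypes, while single samples within a pair can move in opposite directions.

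L29 and L34 lay at or near the floor in many samples, and neither was called. L29, which lies at the exit of the peptide tunnel, was at the floor in 4 of 8 gun1 samples and 5 of 8 WT samples. Its highest levels were 0.191 in gun1 replicate 5 and 0.0930 in WT replicate 6. The log2 difference of 0.35 had a 95% interval from -0.44 to 1.15 (SE 0.38, adjusted p = 0.508), and 2 pairs were lower, 3 higher and 3 equal at the floor. L34, one of the smallest proteins of the large subunit, was at the floor in 3 of 8 gun1 samples and 2 of 8 WT samples. Its gun1 levels reached 0.155 and its WT levels 0.262, with 4 of 8 WT samples above every gun1 sample. The log2 difference of -0.39 had a 95% interval from -1.56 to 0.77 (SE 0.55, adjusted p = 0.623). The interval of L34 includes falls as large as those called for S10, S6 and L5, and that of L29 includes no such fall but larger rises. The floor set the size of both differences: with the floor at the 1st percentile they were 0.74 for L29 and -0.060 for L34, and with the floor at the 20th percentile 0.15 and -0.29. Single samples did so too, since L29 was at 0.090 without gun1 replicate 5 and at 0.22 without gun1 replicate 3. L34 was at -0.63 without WT replicate 3 or 4 and between -0.26 and -0.19 without gun1 replicate 3, 4 or 8 or WT replicate 1, 2 or 5. The direction of L34 turned without scaling (log2 0.35), and that of L29 did not (0.91, adjusted p = 0.0857).

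The numbered samples allow small and large subunit genes to be set against each other within a pair. The mean log2 difference of the small-subunit genes was -0.65 ± 0.22 (SD over 8 pairs), below 0 in 8 of 8 pairs. For the large-subunit genes it was -0.13 ± 0.35 (SD over 8 pairs), below 0 in 4 of 8. The small-subunit mean minus the large-subunit mean averaged -0.53 ± 0.24 (SD over 8 pairs) and was below 0 in 7 of 8 pairs, the exception being number 8, at 0.015. Without the dim genes L29 and L34, the large-subunit mean was -0.24 ± 0.20 (SD over 8 pairs). It was below 0 in 7 of 8 pairs, and the small-subunit mean was again the lower one in 7 of 8, this time with the exception of number 3. On unscaled values, a choice made after seeing the data, the small-subunit mean was -0.28 ± 0.17 and below 0 in 8 of 8 pairs, although S6 alone was lower in 5 of 8, and the large-subunit mean turned to 0.29 ± 0.41 (SD over 8 pairs). The small-subunit minus the large-subunit mean was then -0.56 ± 0.36, and -0.22 ± 0.26 without L29 and L34 (SD over 8 pairs). No test was made of this contrast, since it is a score over chosen genes, and 2 genes against 4 do not represent the subunits.

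**Figure D2:**
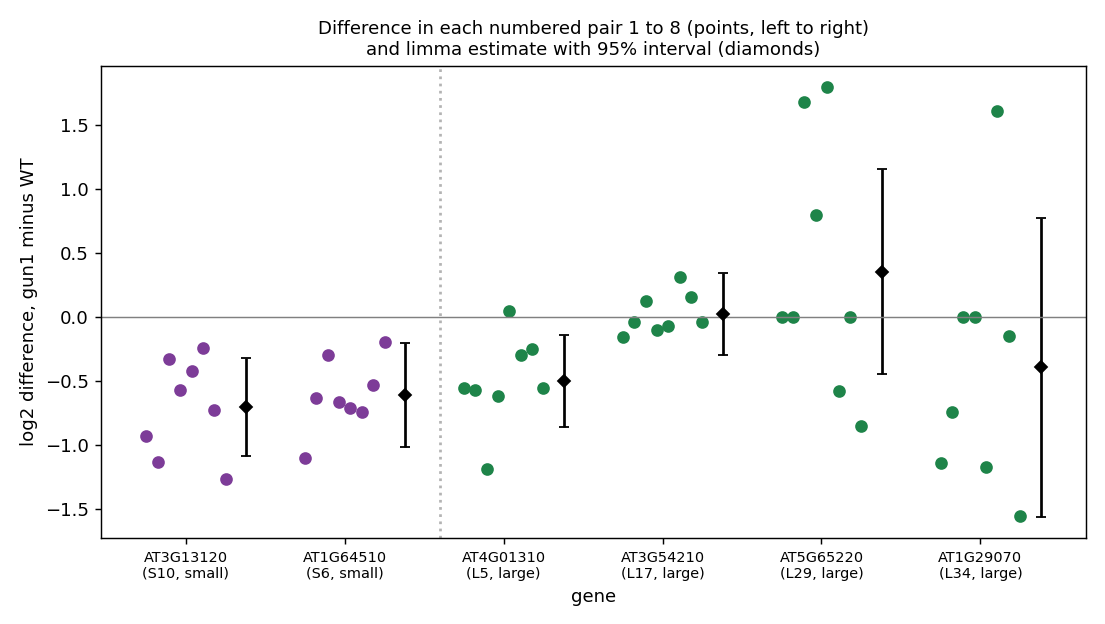
Log2 difference gun1 minus WT (y axis) for each gene (x axis), with a point for each numbered pair 1 to 8 from left to right, purple for the small and green for the large subunit, and diamonds for limma's estimate with its 95% interval. All 16 points of S10 and S6 lie below 0, those of L5 do except number 5, and those of L17 scatter closely around 0.

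The split did not follow the subunits gene by gene. L5 of the large subunit differed by about as much as S10 and S6: S10 lay below L5 in 5 of 8 pairs (mean -0.20, SD 0.51) and S6 lay below L5 in 6 of 8 (mean -0.11, SD 0.53). Against L17, in contrast, S10 lay lower in 8 of 8 pairs (mean -0.72, SD 0.32), S6 in 8 of 8 (mean -0.63, SD 0.28) and L5 in 7 of 8 (mean -0.52, SD 0.39). A comparison of 2 genes within a pair is free of any single scale factor of a sample, so it was repeated on unscaled values, a choice made after seeing the data. There S10 was again below L17 in 8 of 8 pairs (mean -0.59, SD 0.30), L5 in 7 of 8 (mean -0.25, SD 0.34) and S6 in 4 of 8 (mean -0.11, SD 0.34). S10 thus had the difference from L17 that depended least on the scaling among these 3 genes. Such a difference shows unequal change and does not say which gene changed.

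**Figure D3:**
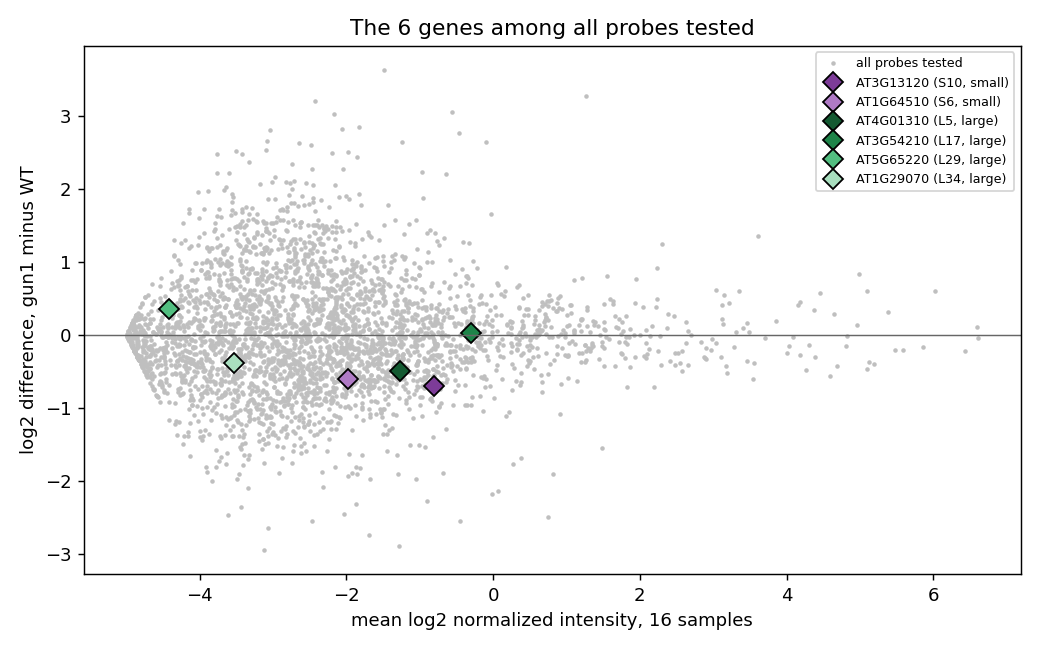
Log2 difference gun1 minus WT (y axis) against the mean log2 normalized intensity over 16 samples (x axis) for the 3419 probes tested (grey), with the 6 genes as diamonds. The called genes S10, S6 and L5 lie within the cloud, with 15.1%, 18.9% and 24.0% of all probes below them, and L29 lies near the floor at the left edge.

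Set among all probes, these differences were of moderate size. Of all probes tested, 15.1% had a log2 difference below that of S10, 18.9% below that of S6 and 24.0% below that of L5. With a common median, 6.17% lay below S10, 22.7% below S6 and 15.98% below L5, and unscaled the shares were 6.72%, 25.9% and 18.0%. Under cyclic loess they were 19.7%, 22.4% and 29.5%, so S10 stood lower among the probes than under quantile normalization with a common median and unscaled, and higher under cyclic loess. Its log2 difference was -1.24 with a common median (adjusted p = 2.84e-05), -0.51 unscaled (adjusted p = 0.00759) and -0.61 under cyclic loess (adjusted p = 0.00774). S10 was the one gene of the 6 called lower under all 4 scalings. The share of all probes called lower was 29.8% with a common median, 6.02% unscaled and 15.5% under cyclic loess.

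**Figure D4:**
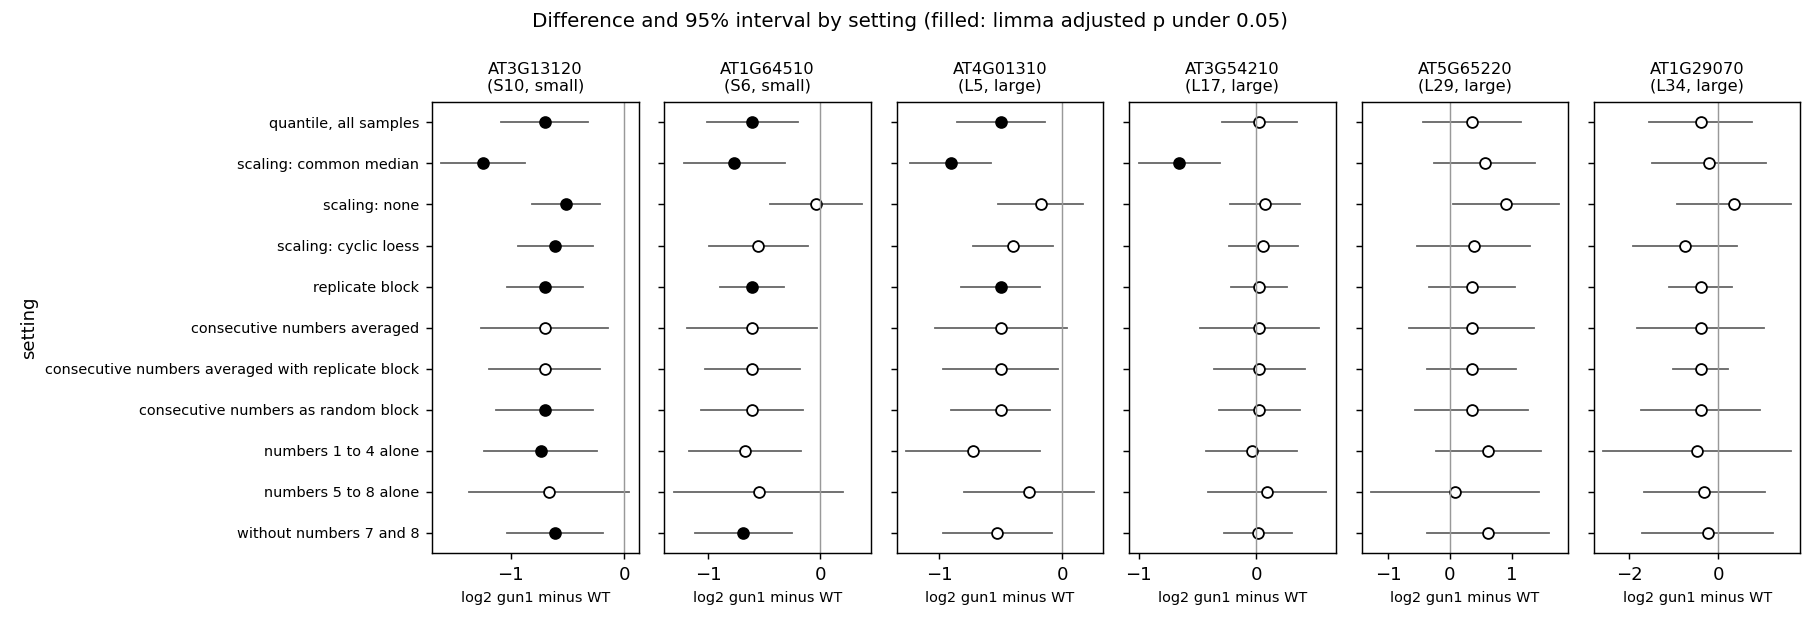
Log2 difference gun1 minus WT (x axis, own scale in each panel) with its 95% interval for each gene under 11 settings (rows), where filled points are called by limma and open points are not. S10 is called under 8 of these settings, and L17 only with a common median.

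Exact tests over the samples, adjusted over all probes, called the same 3 genes as limma. The exact rank sum test, two-sided, gave p = 0.000155 for S10, the smallest that 8 against 8 samples can give, 0.0115 for S6 and 0.00699 for L5 (adjusted p = 0.00191, 0.0415 and 0.0281). An exact permutation that exchanges gun1 and WT within numbered pairs, two-sided, gave p = 0.00781 for S10 and for S6, the smallest that 8 pairs can give, and 0.0156 for L5 (adjusted p = 0.0314, 0.0314 and 0.0464). By these tests 14.8% and 16.6% of all probes were called lower. L17, L29 and L34 had adjusted p from 0.442 to 1.

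These tests count 8 separate samples, but consecutive numbers of a genotype resembled each other, with a mean correlation of deviations across probes of 0.198, where removing the genotype mean fixes the mean over all numbers near the -0.142 found. What consecutive numbers share is not given by the labels. With each 2 consecutive numbers averaged, 4 samples against 4, 0 of the 6 genes were called by limma, at adjusted p of 0.0838 for S10, 0.137 for S6 and 0.180 for L5, where 7.58% of all probes were called lower. Averaging with the pair as a replicate block gave 0.0521, 0.0527 and 0.109, where 10.4% were called lower. As a random block, with all samples kept, consecutive numbers left S10 called (adjusted p = 0.0219) and S6 and L5 not called (0.0551 and 0.0705), where 9.77% were called lower. At an unadjusted p under 0.05, whose limit the 95% interval marks, S10 and S6 were below 0 after averaging (intervals -1.26 to -0.14 and -1.19 to -0.026) and L5 was not (-1.03 to 0.035). With the replicate block added to the averaging, the interval of L5 was below 0 too (-0.97 to -0.031). This limit is looser than that for a call, and the share of all probes below 0 by it is not given here.

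The genes differed in how their variation was divided. Genotype made up 54.4% of the sum of squares of S10 on the log2 scale, 43.2% of that of S6 and 41.9% of that of L5, against a median of 18.0% over all probes. Larger shares were found in 15.3% of all probes for S10, 24.1% for S6 and 25.1% for L5. For L17 genotype made up 0.230%, and the consecutive pairs of numbers, in the part shared by both genotypes, made up 88.5%, a share that 0.790% of all probes exceeded. The median share of the consecutive pairs over all probes was 24.6%.

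**Figure D5:**
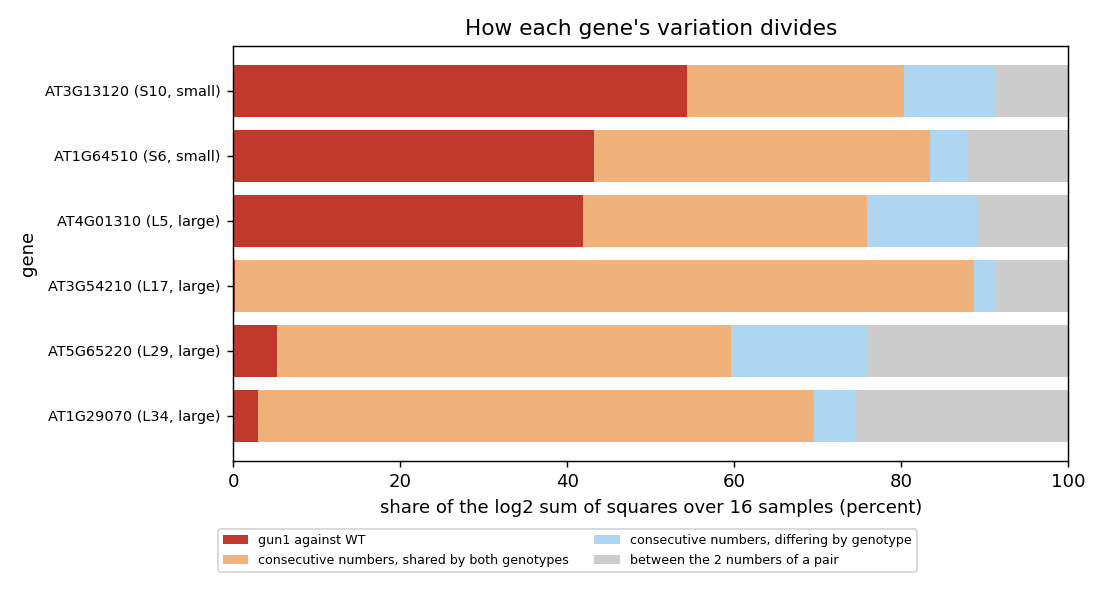
Share of each gene's log2 sum of squares over 16 samples (x axis, percent) due to genotype (red), to consecutive pairs of numbers in the part shared by the genotypes (orange), to the part of them that differs by genotype (blue) and to the spread within such pairs (grey). Genotype is the largest part for S10, S6 and L5, and the consecutive pairs are the largest part for L17, L29 and L34.

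Averaged over consecutive numbers, L17 had a similar profile in both genotypes, although within a pair of numbers the genotypes could move in opposite directions. In gun1 it averaged 0.814 in numbers 1 and 2, 0.988 in 3 and 4, 0.889 in 5 and 6 and 0.643 in 7 and 8. In WT these averages were 0.870, 0.977, 0.819 and 0.618. Its gun1 and WT levels of the same number had a Pearson correlation of 0.82 and a Spearman correlation of 0.71 over 8 numbers, given here as a description.

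L34 also followed the numbers: it was at the floor in numbers 3 and 4 of both genotypes, and in numbers 1 and 2 it averaged 0.136 in gun1 and 0.258 in WT. S6 was highest in numbers 5 and 6 and lowest in 7 and 8 of both genotypes, at 0.269 and 0.177 in gun1 and 0.445 and 0.226 in WT. S10 was highest in numbers 5 and 6 too, at 0.648 in gun1 and 0.816 in WT. Its gun1 average was 0.350 in numbers 1 and 2 and 0.347 in 7 and 8, and the WT averages there were 0.713 and 0.677. The gun1 samples of S10 thus ranged more widely than its WT samples, with an SD of 0.147 in gun1 and 0.0709 in WT. For L5 the lowest gun1 average was 0.249, in numbers 3 and 4, where WT averaged 0.460.

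The numbers split into earlier and later ones gave the same directions for the called genes, with fewer calls. In numbers 1 to 4 the log2 difference was -0.74 for S10 (limma adjusted p = 0.0497), -0.67 for S6 (0.0693) and -0.72 for L5 (0.0709), where 7.43% of all probes were called lower. In numbers 5 to 8 it was -0.66 for S10 (adjusted p = 0.197), -0.55 for S6 (0.310) and -0.27 for L5 (0.483), where 4.38% were called lower.

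Among themselves the 6 genes were loosely related over the 16 samples, once each genotype's mean was removed. Pearson's r ranged from -0.22 to 0.74 over the 15 pairs of genes, with a median of 0.23, and 12 were above 0. S10 and L29 had the highest value (0.74, Spearman 0.76), followed by L5 and L34 (0.61, Spearman 0.71), although L29 and L34 had many samples at the floor. S10 and L17 had 0.56, S10 and S6 0.48, and S6 and L5 0.34. The 16 samples share numbers across genotypes, so these values describe shared numbers as well as shared genes.

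By the same measure, the single-gene probes most like each member are named next, out of 686 genes compared, of which 5 are other members. The median r over those genes was near 0 for each member, at most 0.044. The named genes are the 2 highest of 686 for each member, so their values are high by selection and were not tested. The 2 nearest genes were AT1G01730 (r = 0.81) and AT3G02690 (0.80) for S10 and AT5G17630 (0.85) and AT4G31530 (0.82) for S6. For L5 they were AT5G49800 (0.78) and DME (0.74), a DNA glycosylase gene that acts in removing DNA methylation, and for L17 AT3G61540 (0.86) and AT2G25830 (0.82). For L34 they were AT1G53260 (0.79) and AT2G33180 (0.77). L29 was most like AT5G38360 (0.75), which was at the floor in 14 of 16 samples, and next like S10 (0.74). Genes alike over the samples could differ in opposite directions between genotypes. Of the 2 genes nearest to S10, AT3G02690 was called higher in gun1 (log2 0.88, limma adjusted p = 0.000557). The 2 nearest to L5 were called lower (log2 -1.29 for AT5G49800, adjusted p = 0.000445, and -0.78 for DME, adjusted p = 0.00906). Called higher were also AT3G61540, near L17 (log2 0.59, adjusted p = 0.0368), and AT2G33180, near L34 (log2 0.75, adjusted p = 0.0179). Apart from S10 itself, the other named neighbours were not called. Such calls were common, since 31.8% of all probes tested were called in either direction.

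The other nuclear genes of plastid translation could not be set beside these with the annotation used. It lists no gene for 1877 of 3439 probes and several genes for 870, so a missing gene may lie on an unnamed probe. Of 41 loci listed for plastid ribosomal proteins, 6 had a single-gene probe, the genes described here. Of 10 loci for plastid translation factors, 8 for plastid ribosome assembly and 19 for plastid transcription, 0 had one, although 3 probes that list several genes included a translation factor and 1 an assembly factor.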

How the data were processed

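RNA of 16 samples, 8 gun1 and 8 WT, was measured on arrays, and the sample titles gave group and number. The deposited intensities are linear and run from 0 to 100 in every sample; no source used here states the background correction or scaling behind them. After quantile normalization (limma 3.58.1, R 4.3.3), values deposited as 0 or lying under the 5th percentile of positive values were set to that floor before log2 transformation. Genotypes were compared with limma's lmFit and eBayes, two-sided, with Benjamini-Hochberg adjustment over 3419 probes, leaving out 20 constant ones. The platform's annotation named the probes, and 690 of 692 single-gene probes matched the RefSeq table of assembly TAIR10.1. The genes named are the 6 members, the 2 genes most like each by Pearson correlation, and every measured gene of 8 context lists. Members and lists were chosen with earlier results of these data known. Same-numbered samples deviated together (r across probes from 0.143 to 0.421, over 0.1 in 8 of 8 pairs), so the numbers pair the samples; this comes from the values, as the labels give only numbers. Sums of squares are sequential. Promoter and protein sequences were not used here. Alternatives changed the scaling, the floor, the filter, the blocks, the test and the samples used. The procedure was tested on simulated data. Figures were drawn with matplotlib 3.10.9.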

Additional observations from a re-analysis of the deposited data

Results flagged for a closer look

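In 3 of 12 groups, each holding 1 gene and 1 genotype, a sample lay far from the other 7 by Dixon's criterion, which flags about 1 in 20 groups by chance where values are independent and normal. S10 (AT3G13120) in WT replicate 5 was 0.877, against a median of 0.693 in the other WT samples. L29 (AT5G65220) in gun1 replicate 5 was 0.191, and in WT replicate 6 it was 0.0930, in both cases against a median at the floor of 0.0313. The criterion was applied to linear levels, with ties at the floor for L29.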

How the results depend on the processing

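The log2 differences of the 3 called genes were below 0 under every alternative run, while their calls did not all hold. Alternatives that changed only the floor, the filter, the blocks, the averaging, the variance model or the test left these differences unchanged. They could therefore not turn the sign, and only the other scalings and the subsets of samples could. Of these, the unscaled values left S6 at -0.038, with an interval from -0.45 to 0.37 that spans 0. With the deposited values unscaled, 1 of the 6 genes was called lower (S6 -0.038, L5 -0.18), L34 turned to 0.35, S6 minus L17 moved to -0.11, and within pairs the mean of the large-subunit genes turned to 0.29 and that of the small-subunit genes moved to -0.28. Under cyclic loess 1 was called (S6 -0.55, adjusted p = 0.0530; L5 -0.40, 0.0585). With a common median L17 turned to -0.66. Averaging consecutive numbers gave 592 calls, where the unaveraged fit gave 1088. Among the 6 genes, 0 were then called (S10 -0.70, S6 -0.61 and L5 -0.50, as in the unaveraged fit). Averaging with a replicate block also left 0 of the 6 called (the same differences of -0.70, -0.61 and -0.50). Consecutive numbers as a random block left 1 (S6 -0.61, L5 -0.50). Numbers 1 to 4 alone gave 582 calls, 1 of them among the 6 genes (S6 -0.67, L5 -0.72), and L17 turned to -0.042. Numbers 5 to 8 alone gave 331 calls and 0 among the 6 (S10 -0.66, S6 -0.55, L5 -0.27). Without numbers 7 and 8, L5 was not called (-0.53, adjusted p = 0.0767). These subsets and averages hold fewer samples, while the random block keeps all 16 and gave 733 calls. Of all probes tested, 6.02% were called lower unscaled, 15.5% under cyclic loess, 7.58% with averaging and 10.4% with averaging and a replicate block. The share was 9.77% with the random block, 7.43% in numbers 1 to 4 and 4.38% in numbers 5 to 8. Without these changes it was 15.2%. Averaging consecutive numbers took the SE of S10 from 0.18 to 0.25. Why the number of calls fell was not tested. The replicate number as a block changed no call among the 6 genes (adjusted p = 0.00588 for S10, 0.00552 for S6 and 0.0228 for L5). Leaving out 1 sample at a time gave differences from -0.78 to -0.61 for S10, called in 16 of 16, from -0.67 to -0.52 for S6, called in 16 of 16, and from -0.58 to -0.40 for L5, called in 10 of 16. L17 ranged from -0.038 to 0.083, turning below 0 without gun1 replicate 3 or 6 or WT replicate 7 or 8, L29 from 0.090 to 0.52 and L34 from -0.63 to -0.19. The floor at the 1st or 20th percentile, another variance model and a filter on dim probes, which dropped L29, changed no call among the 6, though the floor moved L29 to 0.74 or 0.15 and L34 to -0.060 or -0.29. The median small-subunit minus the median large-subunit difference lay between -0.64 and -0.41 over 12 alternatives, of which those that change only blocks or averaging cannot move it. Depth is not a quantity of these arrays; the floor limits L29 and L34.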
